A study of Mus musculus with 40 samples.

Results

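Caloric restriction of mice on the low-sucrose NIA diet is described here through 14 liver arrays, 9 labelled CR-NIA and 5 labelled AL-NIA, chosen by their labels from the 40 arrays analysed in all. All the mice were male C57BL/6J, a common inbred laboratory strain, with no transgene or deletion named. They arrived at 6 weeks of age, started on their diet at 5 months, and the portions of restricted and meal-fed mice were held fixed from 14 months. The labels used here give no age at tissue collection. AL-NIA mice fed freely (ad libitum) from a hopper and, per the labels, took in more calories than any other group. CR-NIA mice received 30% fewer calories, as 1 portion a day placed on the cage floor at 3 pm. MF-NIA mice (6 arrays), used below as a second reference, received their 1 daily portion at the same hour but in the hopper, with the calories of the AL-WIS mice. Sucrose supplied 7.6% and fat 17.7% of the energy of the NIA diet, against 46% and 24.4% in the WIS diet, on which 10 CR-WIS and 6 AL-WIS arrays serve as a repeat of the comparison. CR and AL mice therefore differed in the amount of food, in its timing and in where it was placed, and these 3 cannot be told apart between them alone. The labels used here give no hour of tissue collection. They number the arrays of a group without saying that each is a different mouse, so p-values measure the spread between these arrays, which may in part be technical.

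The liver adapts to restricted or intermittent food by shifting from fat and cholesterol synthesis towards glucose output and fat oxidation. Its molecular clock is a loop in which ARNTL (BMAL1) and CLOCK activate the genes of their own repressors, the PER, CRY and REV-ERB proteins, and feeding time is a strong signal to this loop in liver. The liver is also a secretory organ: a large share of its proteins pass through the endoplasmic reticulum (ER), whose folding capacity is adjusted by the unfolded protein response.

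Each value below is a level on a log2 scale, where 0 is the mean over all probes of that array. AL-NIA levels are always given for replicates 1 to 5 in that order. A gene is called changed when limma's p, adjusted by Benjamini-Hochberg over 7958 genes, is under 0.05. Whole liver was measured, and fewer cells of a type and less RNA per cell cannot be told apart. Per array, 8725 to 9893 of 25697 probes were detected on the 8 readable CR-NIA signal columns. The defining hepatocyte genes were at high levels in all groups, with a mean level over 15 markers of 5.76 to 6.21 in AL-NIA and 5.54 to 6.67 in CR-NIA replicates 2 to 9.

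One library went against its label. On an axis built from the genes that differ between the groups, with the tested library left out and with 0 at the AL-NIA mean and 1 at the CR-NIA mean, CR-NIA replicates 2 to 9 lay at 0.901, 0.951, 1.10, 1.21, 1.10, 1.03, 1.27 and 1.19. Each library had an axis of its own, built from 507 to 1422 genes. All axes but that of the library labelled CR-NIA replicate 1 held that library in the CR-NIA mean, so the values do not share a common scale. The library labelled CR-NIA replicate 1 lay at -0.0793, among the AL-NIA libraries, which lay at 0.340, 0.276, 0.181, -0.0820 and 0.0716. Only 7.10% of the genes on its own axis were nearer to the CR mean in this library. It correlated on average at 0.981 with the AL-NIA arrays and at 0.962 with the other CR-NIA arrays. The signal table has 8 CR-NIA columns where the labels give 9 samples, and none of the 8 matched this library's scores, the closest being off by up to 3.17, whereas 34 other libraries matched a column of their own group within 0.01. The 6 AL-NIA signal columns, 1 more than the labelled samples, carry only a group name, as do all the others. They were not used, so whether 1 of them matches this library's scores was not checked. The library was kept under its label, and the main counts below are given with it (9 against 5) and without it (8 against 5). On a second axis, built once from all 5 AL-NIA and 8 CR-NIA libraries, which lie at -0.200 to 0.105 and 0.850 to 1.13 by construction, the MF-NIA libraries lay between 0.202 and 0.474 (median 0.353) and the CR-WIS libraries between 0.152 and 0.872 (median 0.755).

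**Figure D1:**
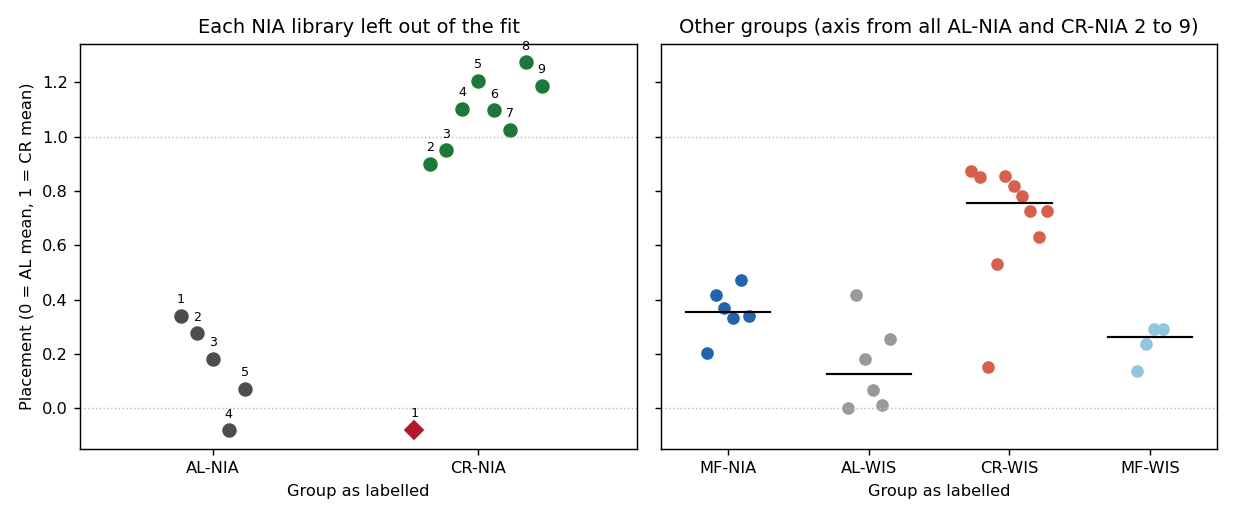
Placement of each library on the axis from the AL-NIA mean (0) to the CR-NIA mean (1), with each library left out of its own axis on the left (replicate numbers shown), and on the right the other groups with their medians (black lines) on a separate axis built from all AL-NIA libraries and CR-NIA replicates 2 to 9, so that values of the panels are not directly comparable. CR-NIA replicates 2 to 9 sit between 0.901 and 1.27, and the library labelled CR-NIA replicate 1 (red diamond, -0.0793) sits among the AL-NIA libraries.

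With all 9 CR-NIA libraries, 885 of 7958 genes (11.1%) differed from AL-NIA, 382 higher (4.8%) and 503 lower (6.32%). Without the library labelled CR-NIA replicate 1, 1422 genes (17.9%) differed, 646 higher (8.12%) and 776 lower (9.75%), and all 885 were among them. The split moved with the scaling, to 518 higher and 439 lower after quantile normalization and to 587 higher and 337 lower after median centring. The median size of a called difference was 0.51 on the log2 scale. Of the 15 largest rises 4 were clock genes, Usp2, Dbp, Tef and Ciart, and the largest falls were those of Cyp17a1, a steroid enzyme, and Tubb2b, a tubulin. Below, values in parentheses after a gene are its log2 difference between CR-NIA and AL-NIA ± its standard error (SE), followed by limma's adjusted p, all with 9 CR-NIA libraries unless stated. Every gene called with 9 libraries was also called without that library. In 311 genes (3.91% of all) at least 8 of 9 CR-NIA libraries lay above every AL-NIA library, and in 368 (4.62%) at least 8 lay below. Without AL-NIA replicate 4 the count of called genes dropped to 507, the lowest of the 14 single removals.

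Of the 53 gene lists examined, that of the circadian clock held the largest share of called genes. Of 17 measured clock genes 8 rose and 3 fell, against 4.8% and 6.32% of all genes, and 9 rose and 3 fell without the library labelled CR-NIA replicate 1 (8.12% and 9.75%). Of 6 repressors of the loop 4 rose, of 3 output factors 2 rose and 1 fell, and both measured core activators fell. Dbp, a transcription activator that binds D-box elements and is a direct clock output, stood at 4.45, 3.94, 2.69, 0.00 and 0.15 in AL-NIA and between 5.41 and 6.30 with a median of 5.74 in CR-NIA replicates 2 to 9. The AL-NIA libraries thus spread widely, with replicates 4 and 5 far below the others, and all 8 CR-NIA libraries lay above every one of them. The library labelled CR-NIA replicate 1 had 0.79. The log2 difference was 2.98 ± 0.77 (SE, adjusted p 0.00996), or 3.54 without that library (adjusted p 0.000217).

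Usp2, a deubiquitinating enzyme with strongly rhythmic expression, had the largest fitted rise, 3.07 ± 0.59 (adjusted p 0.000994), or 3.48 without the library labelled CR-NIA replicate 1. Its AL-NIA levels were 0.80, -0.36, -0.50, -0.63 and -0.71, and CR-NIA replicates 2 to 9 lay between 2.57 and 3.61 with a median of 3.31. Tef, a second D-box activator, rose by 1.70 ± 0.37 (adjusted p 0.00312), with 3.44, 2.60, 2.42, 1.13 and 1.55 in AL-NIA and between 3.43 and 4.67 with a median of 4.30 in CR-NIA replicates 2 to 9. The lowest signals called detected lay at -0.57 to -0.29 in the 34 columns read, and 4 of the AL-NIA levels of Usp2 and 3 of those of Ciart lie under -0.29, so the size of these rises rests in part on background signal. Ciart, a repressor of the CLOCK and ARNTL pair, rose by 1.67 ± 0.38 (adjusted p 0.00445), from 0.75, -0.15, -0.77, -0.44 and -0.44 to between 1.06 and 2.23 with a median of 1.55. The groups did not overlap for Usp2 and Ciart once the library labelled CR-NIA replicate 1 was set aside, whereas AL-NIA replicate 1 reached the lowest of the other CR-NIA libraries for Tef.

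Of the 3 period genes Per1 and Per2 rose and Per3 was not called (0.44 ± 0.20, adjusted p 0.148). Per1 stood at 1.66, -0.36, -0.02, -0.12 and -0.56 in AL-NIA, so that replicate 1 of that group lay inside the CR-NIA range of 1.21 to 2.05. Its difference was 1.21 ± 0.35 (adjusted p 0.0215). The AL-NIA levels of -0.36 and -0.56 lie under -0.29, so the size of this rise also rests in part on background signal. Per2 rose by 1.17 ± 0.29 (adjusted p 0.00725), Nr1d2, which encodes the repressor REV-ERB beta, by 1.13 ± 0.34 (0.0258) and Bhlhe40, another repressor, by 0.57 ± 0.17 (0.0275). In the opposite direction, Arntl lay at -0.12, 0.44, 0.98, 1.48 and 1.27 in AL-NIA and between -0.97 and -0.77 with a median of -0.89 in CR-NIA replicates 2 to 9. It was not detected on any of the 8 CR-NIA columns, so the fall is a bound. Over those 8 columns, which leave out the library labelled CR-NIA replicate 1, Arntl was at least 2.37-fold lower than in AL-NIA. With all 9 CR-NIA libraries its adjusted p in limma was 0.00524. Clock, the partner of Arntl, fell by 0.75 ± 0.22 (adjusted p 0.0237). Nfil3, which represses the D-box elements that Dbp and Tef activate, fell from 2.45, 3.19, 3.35, 3.92 and 3.76 to between 0.50 and 1.24 with a median of 1.06, a difference of -2.06 ± 0.39 (adjusted p 0.000985). For Nfil3 and Arntl the 8 CR-NIA libraries lay below every AL-NIA library, and the library labelled CR-NIA replicate 1 lay within the AL-NIA range at 3.79 and 1.28. Without either of AL-NIA replicates 4 or 5, the call of Dbp ended (adjusted p up to 0.061). The call of Per1 ended without any of AL-NIA replicates 2, 4 or 5 (adjusted p up to 0.0777). Leaving out any of AL-NIA replicates 2, 4 or 5 or CR-NIA replicate 4 ended the call of Nr1d2 (adjusted p up to 0.156). Without any of AL-NIA replicates 2 or 3 or CR-NIA replicates 7 or 9, the call of Bhlhe40 ended (adjusted p up to 0.119). The call of Clock ended without any of AL-NIA replicates 3, 4 or 5 (adjusted p up to 0.0729). Over the single removals other than that of the library labelled CR-NIA replicate 1, the list had 5 to 8 rises and 2 or 3 falls. Of 7 further probes of the called clock genes all 7 moved in the direction of the main probe, and 5 of them passed the threshold.

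The E-box, CACGTG, is the element through which CLOCK and ARNTL act. Promoters (250 bases before to 50 bases after the start, RefSeq on GRCm38.p6) were given for 14 of the measured clock genes, and CACGTG occurred in those of 3 of the 6 that rose, Ciart, Per1 and Tef, in 0 of the 3 that fell and in 0 of the 5 not called. It occurs in 7.15% of 32851 promoters. The Ciart promoter, chr3:95882179-95882478 on the minus strand, is shown because it holds 3 copies, which start 116, 58 and 44 bases before the transcription start (in capitals):
Ciart promoter: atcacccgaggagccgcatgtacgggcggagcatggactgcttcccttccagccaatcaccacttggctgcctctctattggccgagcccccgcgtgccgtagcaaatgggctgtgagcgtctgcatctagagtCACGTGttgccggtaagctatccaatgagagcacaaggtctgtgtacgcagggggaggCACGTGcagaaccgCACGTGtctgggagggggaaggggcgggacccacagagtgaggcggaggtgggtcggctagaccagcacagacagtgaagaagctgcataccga
The palindrome reads the same on both strands, and its presence in a window does not show that a factor bound there.

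**Figure D2:**
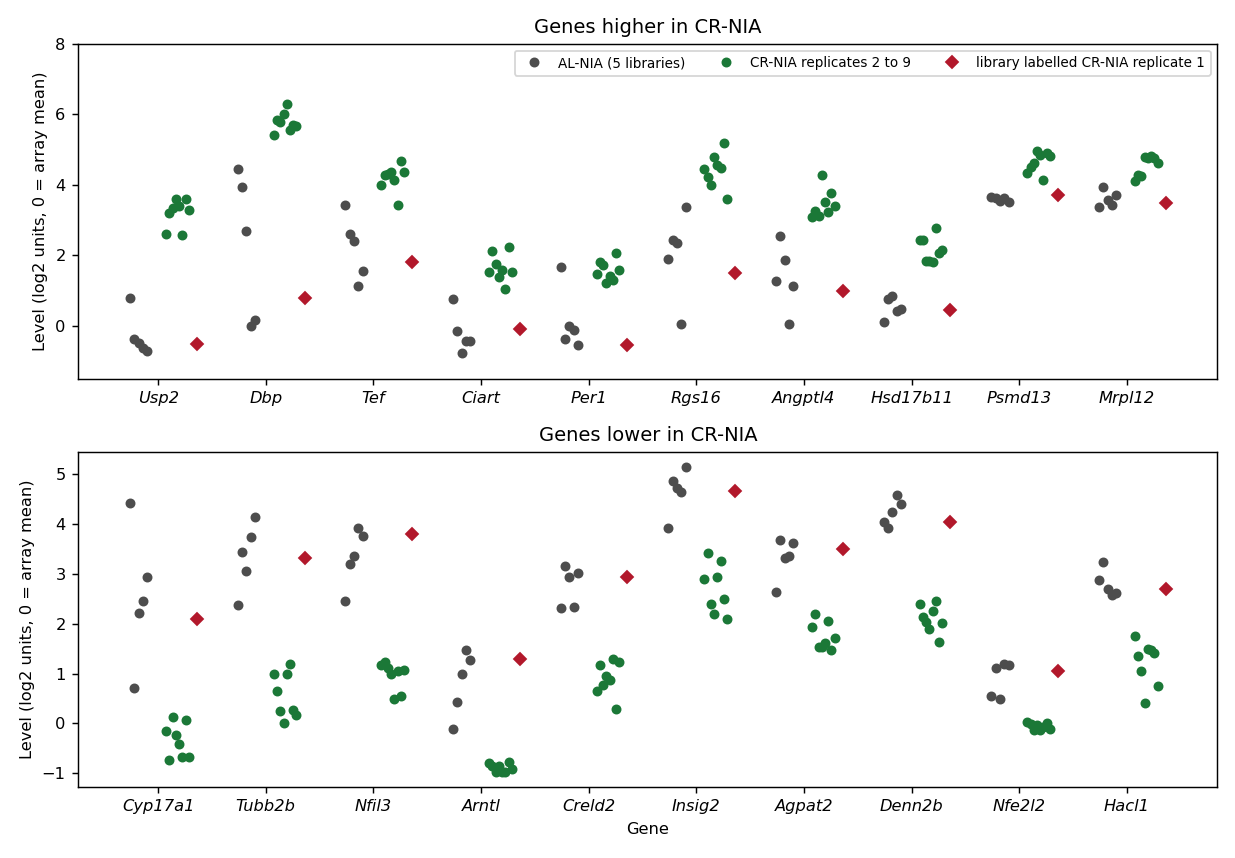
Level of 20 genes in each library (log2 units, 0 = array mean), for 10 genes higher and 10 lower in CR-NIA. Gray points are the 5 AL-NIA libraries, green points CR-NIA replicates 2 to 9 and red diamonds the library labelled CR-NIA replicate 1, which lies with the AL-NIA libraries or near them in every gene shown.

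Genes outside the clock list that rose most included several known to follow feeding or the clock in mouse liver. Rgs16, a regulator of G-protein signalling, stood at 1.89, 2.45, 2.35, 0.05 and 3.38 in AL-NIA and between 3.59 and 5.18 with a median of 4.46 in CR-NIA replicates 2 to 9, a rise of 2.06 ± 0.53 (adjusted p 0.0094). Upp2, a uridine phosphorylase, rose by 1.71 ± 0.52 (0.0275), and Cyp2a5, a cytochrome P450 that oxidizes coumarin and nicotine in mice, by 1.69 ± 0.45 (0.0121). Cyp2a5 was high in all 9 CR-NIA libraries, the one labelled replicate 1 included (6.51), above the highest AL-NIA level of 6.40; probes of the near-identical Cyp2a genes can share signal. Gpcpd1, which breaks down glycerophosphocholine, rose by 2.06 ± 0.46 (0.00335), Coq10b, a coenzyme Q binding protein, by 1.85 ± 0.36 (0.000994), and the proprotein convertase Pcsk4 by 1.72 ± 0.31 (0.000704). Hsd17b11, a dehydrogenase of lipid droplets, rose from 0.11, 0.77, 0.85, 0.42 and 0.47 to between 1.81 and 2.76 with a median of 2.11 (1.45 ± 0.23, adjusted p 0.000285). The retinol dehydrogenase Rdh9 rose by 1.36 ± 0.37 (0.0154) and Nrep by 1.54 ± 0.44 (0.0183). In each of Rgs16, Coq10b, Pcsk4, Hsd17b11, Rdh9 and Nrep the 8 CR-NIA libraries lay above every AL-NIA library. Leaving out AL-NIA replicate 4 ended the calls of Rgs16, Cyp2a5 and Rdh9 (adjusted p 0.068, 0.0507 and 0.0841). Without any of AL-NIA replicates 4 or 5 or CR-NIA replicate 8, the call of Upp2 ended (adjusted p up to 0.101). The call of Nrep ended without AL-NIA replicate 1 (adjusted p 0.0562).

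Part of the ER folding machinery was lower under restriction. Of 22 measured genes of the unfolded protein response 5 fell and 0 rose, against 6.32% and 4.8% of all genes, with a median log2 difference over the 22 of -0.28 against -0.01 over all genes. Without the library labelled CR-NIA replicate 1, 8 fell (9.75% of all genes), adding Dnajc3, Hyou1 and Edem1. The mean level of the 22 genes was 2.52 to 2.68 in AL-NIA and 2.04 to 2.33 in CR-NIA replicates 2 to 9. In MF-NIA it was 2.21 to 2.59 and so reached below the AL-NIA range, and lower levels were not particular to restriction. Creld2, an ER-resident gene induced by unfolded protein, stood at 2.31, 3.15, 2.94, 2.33 and 3.02 in AL-NIA and between 0.29 and 1.28 with a median of 0.91 in CR-NIA replicates 2 to 9, and fell by 1.62 ± 0.29 (adjusted p 0.000663). The 2 groups did not overlap apart from the library labelled CR-NIA replicate 1, which had 2.93. Calr, the lectin chaperone calreticulin, lay at 2.75, 4.21, 2.91, 3.41 and 2.84 against a range of 1.72 to 2.45 with a median of 2.07 (-0.98 ± 0.30, adjusted p 0.0283). Hspa5, the chief ER chaperone BiP, fell by 0.65 ± 0.21 (0.0404). Syvn1, the ubiquitin ligase of ER-associated degradation, went from 5.15, 4.95, 4.92, 5.19 and 5.65 to between 3.97 and 4.53 with a median of 4.24 (-0.81 ± 0.19, 0.00469), and Atf4, the transcription factor of the PERK branch, from 2.35, 2.94, 2.54, 2.88 and 3.00 to between 1.68 and 2.34 with a median of 1.95 (-0.69 ± 0.18, 0.0109). None of the 13 measured targets of the amino acid response list, which share Atf4 as their activator, was called in limma. Leaving out any of AL-NIA replicates 2 or 4 or CR-NIA replicate 7 ended the call of Calr (adjusted p up to 0.122). Hspa5 lost its call in 10 of 14 single removals, with an adjusted p of up to 0.119 (without AL-NIA replicate 5). With the library labelled CR-NIA replicate 1 also left out, Hspa5 still lost the call in 6 of 13 removals. The list had 3 to 5 falls over the other single removals, and 5 to 8 when a further library was left out beside the one labelled CR-NIA replicate 1.

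Several of these genes carry the ER stress response element, CCAAT and CCACG separated by 9 bases, through which ATF6 and XBP1 act. Exact matches on either strand occur in 0.119% of the 32851 promoters, and in those of 7 of the 20 list genes with a promoter sequence: 4 of the 5 that fell and 3 of the 15 not called. The sites are printed to show what the genes share, with CCAAT and CCACG, or their reverse complements ATTGG and CGTGG, in capitals and each read along its gene (GRCm38.p6).
Creld2, chr15:88819520-88819538, 126 bases before the start: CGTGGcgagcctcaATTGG
Calr, chr8:84847075-84847093, 162 bases before the start: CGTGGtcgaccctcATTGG
Syvn1, chr19:6046532-6046550, 44 bases before the start: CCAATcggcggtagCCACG
Hspa5, chr2:34772025-34772043, 65 bases before the start: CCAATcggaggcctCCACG
Dnajc3, chr14:118937827-118937845, 105 bases before the start: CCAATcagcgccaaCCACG
Hsp90b1, chr10:86705638-86705656, 212 bases before the start: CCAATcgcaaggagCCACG
Hsp90b1, chr10:86705533-86705551, 107 bases before the start: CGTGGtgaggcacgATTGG
Pdia6, chr12:17266491-17266509, 98 bases before the start: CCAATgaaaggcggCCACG
The first 4 lie in genes that fell, and the others in Dnajc3, Hsp90b1 and Pdia6, whose log2 differences were -0.34 ± 0.13, -0.20 ± 0.11 and -0.15 ± 0.15 (adjusted p 0.0973, 0.238 and 0.565). A match of these letters is not evidence of binding in these livers.

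In the secretory pathway 9 of 40 measured genes fell and Ssr4 alone rose, against 6.32% and 4.8% of all genes, or 14 and 1 without the library labelled CR-NIA replicate 1 (9.75% and 8.12%). After median centring the falls numbered 3. The mean level of the 40 genes was 2.61 to 2.74 in AL-NIA and 2.43 to 2.57 in CR-NIA replicates 2 to 9. In MF-NIA it was 2.42 to 2.64, so a lower mean was not particular to restriction. Sec23b, a coat subunit of ER-to-Golgi vesicles, stood at 1.13, 1.16, 1.07, 1.03 and 1.12 in AL-NIA and between 0.00 and 0.71 with a median of 0.37 in CR-NIA replicates 2 to 9 (-0.63 ± 0.15, adjusted p 0.00628). The AL-NIA levels differed little from each other, and all 8 CR-NIA libraries lay below them. Srprb, of the signal recognition particle receptor, fell by 0.56 ± 0.15 (0.0146), the translocon subunit Ssr2 by 0.40 ± 0.11 (0.0169) and the cargo receptor Surf4 by 0.40 ± 0.11 (0.0198). Among 31 heat shock proteins and chaperones 4 fell and 1 rose (7 and 3 without that library). Hsph1, a cytosolic heat shock protein, fell from 2.08, 2.78, 2.85, 3.08 and 3.61 to between 1.13 and 2.28 with a median of 1.77 (-0.91 ± 0.26, 0.0181), and Ahsa1, an activator of HSP90, by 0.53 ± 0.12 (0.00462). The mitochondrial unfoldase Clpx fell by 1.21 ± 0.31 (0.00984), whereas the mitochondrial chaperone Hspa9 rose by 0.42 ± 0.11 (0.0109). Without AL-NIA replicate 4, the call of Srprb ended (adjusted p 0.0523). The call of Ssr2 ended without AL-NIA replicate 2 (adjusted p 0.0523). Leaving out either of AL-NIA replicates 1 or 5 ended the call of Surf4 (adjusted p up to 0.0573). Without either of AL-NIA replicates 4 or 5, the call of Hsph1 ended (adjusted p up to 0.085).

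Most measured genes of the tubulin and cytoskeleton list lay lower under restriction. Of 14 measured tubulin and cytoskeleton genes 8 fell and 0 rose, also without the library labelled CR-NIA replicate 1, and 13 of the 14 had a negative difference (median -0.48). Over all genes 6.32% fell and 4.8% rose, or 9.75% and 8.12% without that library. After quantile normalization or median centring 6 fell. The mean level of the 14 genes was 2.45 to 2.90 in AL-NIA and 1.716 to 2.115 in CR-NIA replicates 2 to 9. In MF-NIA it was 1.93 to 2.39, below every AL-NIA library, so a lower mean was not particular to restriction. Tubb2b, a beta tubulin, dropped from 2.37, 3.43, 3.06, 3.73 and 4.14 to between 0.00 and 1.19 with a median of 0.46, 5.58-fold lower (-2.48 ± 0.45, adjusted p 0.000704). Tubb4b went from 3.61, 4.09, 3.56, 3.64 and 4.58 to between 2.28 and 3.32 with a median of 2.53 (-1.07 ± 0.28, 0.0109). Of the alpha tubulins, Tuba1a fell by 0.97 ± 0.22 (0.00346) and Tuba1b by 0.86 ± 0.23 (0.0138). In all 4 genes the AL-NIA libraries lay above every CR-NIA library but the one labelled replicate 1. Mean levels of the stellate cell and macrophage marker lists, whose cells also express tubulins, were lower in CR-NIA replicates 2 to 9 as well (0.24 to 0.60 against 0.45 to 1.35, and 0.49 to 1.27 against 1.00 to 2.04 in AL-NIA). Without the 3 libraries that stand apart, 10 of 16 macrophage and 10 of 18 stellate cell markers fell, where 1204 of all 7958 genes did. The part of these cells in the fall of the tubulins was not tested. Tubulin genes are close copies of one another, so a probe can pick up more than its own transcript. The call of Tubb4b ended without AL-NIA replicate 5 (adjusted p 0.0514).

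Few genes of lipid and sterol synthesis were called, and those called fell: 1 of 4 regulators and 2 of 15 enzymes of cholesterol synthesis, and 1 of 4 regulators and 0 of 12 enzymes of lipogenesis. Over all genes 6.32% fell, or 9.75% without the library labelled CR-NIA replicate 1. The 1 fall among 16 lipogenesis genes is not above that background. Insig2, which retains the sterol sensor SCAP and with it SREBP in the ER, stood at 3.91, 4.86, 4.73, 4.63 and 5.13 in AL-NIA and between 2.08 and 3.41 with a median of 2.69 in CR-NIA replicates 2 to 9 (-1.73 ± 0.35, adjusted p 0.00158), with no overlap. The sterol enzymes Nsdhl and Sc5d fell by 1.16 ± 0.31 (0.0114) and 1.18 ± 0.35 (0.0271). These 3 were the called members of 20 cholesterol genes, with or without the library labelled CR-NIA replicate 1. Of 16 lipogenesis genes only Mlxipl was called, likewise in both fits, which encodes the glucose-responsive activator ChREBP: 3.83, 4.39, 4.26, 4.26 and 4.42 in AL-NIA against a range of 2.78 to 3.61 with a median of 3.19 (-0.94 ± 0.19, 0.00184). Fasn, fatty acid synthase, had 0.33, 0.14, 0.92, 0.02 and 1.52 against a range of -0.32 to 0.35 with a median of -0.13, a difference of -0.56 ± 0.27 that did not pass (adjusted p 0.187). In triglyceride handling, Agpat2, an acyltransferase of phosphatidic acid synthesis, fell from 2.63, 3.67, 3.32, 3.35 and 3.62 to between 1.46 and 2.19 with a median of 1.67 (-1.37 ± 0.28, 0.00157). Lpin2, a phosphatidate phosphatase, rose by 0.95 ± 0.27 (0.0174). Leaving out either of AL-NIA replicates 4 or 5 ended the call of Lpin2 (adjusted p up to 0.0902). Sc5d lost its call in 5 of 14 single removals, with an adjusted p of up to 0.0747 (without AL-NIA replicate 3).

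Cyp17a1, a steroid hydroxylase and lyase of androgen synthesis that mouse liver also expresses, had the largest fitted fall (-2.61 ± 0.62, adjusted p 0.00547). Its AL-NIA levels of 4.42, 0.71, 2.20, 2.46 and 2.93 spread widely, yet the 8 other CR-NIA libraries, between -0.72 and 0.12 with a median of -0.32, lay below all of them, and it was detected on 4 of 8 CR-NIA columns, so the size of the fall rests in part on background signal. Acnat2, a peroxisomal acyltransferase that conjugates amino acids, fell from 1.36, 1.78, 1.37, 1.63 and 1.84 to between -0.60 and -0.17 with a median of -0.32 (-1.68 ± 0.36, 0.00238) and was detected on 5 of 8. Hacl1, a lyase of peroxisomal alpha-oxidation, went from 2.87, 3.23, 2.70, 2.57 and 2.61 to between 0.41 and 1.75 with a median of 1.39 (-1.42 ± 0.33, 0.00456). Ddc, the aromatic amino acid decarboxylase, fell by 1.59 ± 0.39 (0.007), the matrix protein Spon2 by 1.94 ± 0.40 (0.00173) and Denn2b, an exchange factor for Rab proteins, by 1.92 ± 0.32 (0.000446). Insc, Lrfn3, Pnkd and the nicotinic receptor subunit Chrna4 completed the 15 largest falls, at -1.69, -1.49, -1.48 and -1.80. Without either of AL-NIA replicates 4 or 5, the call of Chrna4 ended (adjusted p up to 0.0896). With the library labelled CR-NIA replicate 1 also left out, Chrna4 still lost the call in 1 of 13 removals.

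Fat oxidation genes showed few calls with all libraries. Of 43 measured PPAR alpha targets and partners 3 rose and 0 fell, close to the 4.8% and below the 6.32% of all genes. Of the 43 differences 32 were positive (median 0.18), where 47.24% of all genes were positive. Without the library labelled CR-NIA replicate 1, 8 rose and 2 fell, against 8.12% and 9.75% of all genes. Angptl4, a secreted inhibitor of lipoprotein lipase, stood at 1.27, 2.55, 1.86, 0.05 and 1.13 in AL-NIA and between 3.10 and 4.27 with a median of 3.32 in CR-NIA replicates 2 to 9 (1.81 ± 0.40, adjusted p 0.00312), with no overlap. Ppargc1b, a coactivator of mitochondrial genes, rose by 0.74 ± 0.20 (0.0128), and Acads, the short-chain acyl-CoA dehydrogenase, from 2.10, 2.40, 2.61, 2.55 and 2.61 to between 3.00 and 3.64 with a median of 3.22 (0.74 ± 0.14, 0.000785). Acads lay above every AL-NIA library in all 9 CR-NIA libraries. Fgf21, a fasting hormone of the liver, had -0.75, 0.11, -0.42, 0.08 and 1.87 against a range of -0.75 to 0.88 with a median of -0.54 and was not called (-0.53 ± 0.39, 0.419). No gene was called among 4 ketone body genes (1 rose without the library labelled CR-NIA replicate 1) and 16 lipoprotein genes. The call of Ppargc1b ended without AL-NIA replicate 4 (adjusted p 0.0547).

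Glucose genes moved in single members rather than as a set. Pck1, the control enzyme of gluconeogenesis, stood at 3.26, 1.80, 2.69, 2.07 and 0.95 in AL-NIA and between 2.33 and 4.09 with a median of 3.66 in CR-NIA replicates 2 to 9, overlapping ranges with a difference of 1.05 ± 0.35 (adjusted p 0.0429). It was the 1 called gene of 16 in both fits and none was called after quantile normalization, and G6pc, which releases free glucose, had -1.0 ± 0.49 (0.194). In glycogen metabolism Ugp2, which makes UDP-glucose, rose from 2.85, 2.22, 2.63, 2.25 and 2.46 to between 2.94 and 3.65 with a median of 3.43 (0.77 ± 0.19, 0.0071), and Ppp1r3b, a glycogen-targeting phosphatase subunit, fell by 1.21 ± 0.37 (0.0291). Of 14 insulin and IGF signalling genes 3 rose and 2 fell, with or without the library labelled CR-NIA replicate 1. Over all genes 4.8% rose and 6.32% fell with it, and 8.12% and 9.75% without it. Txnip, a glucose-responsive arrestin, rose from 0.95, 1.95, 1.74, 1.69 and 2.13 to between 2.25 and 3.77 with a median of 2.94 (1.13 ± 0.29, 0.0102), Pik3r1, the regulatory subunit of PI3-kinase, by 0.55 ± 0.15 (0.0127), and Igfbp2, an IGF-binding protein, by 0.92 ± 0.31 (0.0492). Igfbp1, which insulin represses and fasting raises, was lower here: 2.57, -0.09, 0.95, 2.17 and 1.24 in AL-NIA against a range of -0.59 to 0.80 with a median of -0.04 (-1.23 ± 0.41, 0.044). Pdk4, a pyruvate dehydrogenase kinase that fasting also raises, had -0.26, -0.08, 0.48, 0.72 and 1.58 against a range of -0.66 to -0.30 with a median of -0.48 (-0.88 ± 0.25, 0.0205). Igfbp1 was detected on 6 and Pdk4 on 2 of the 8 CR-NIA columns, so their folds rest in part on background signal. Leaving out either of AL-NIA replicates 4 or 5 ended the call of Pdk4 (adjusted p up to 0.123). Pck1, Ppp1r3b, Igfbp2 and Igfbp1 lost their calls in 9, 5, 11 and 11 of 14 single removals, with adjusted p of up to 0.188, 0.114, 0.145 and 0.176 (without AL-NIA replicate 5, AL-NIA replicate 5, AL-NIA replicate 5 and AL-NIA replicate 1). With the library labelled CR-NIA replicate 1 also left out, Igfbp1 still lost the call in 2 of 13 removals.

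The called genes of the respiratory chain were all higher in CR-NIA. Of 70 measured genes of oxidative phosphorylation 13 rose and 0 fell, against 4.8% and 6.32% of all genes, and 59 of 70 differences were positive (median 0.24). Without the library labelled CR-NIA replicate 1, 23 rose and 0 fell, against 8.12% and 9.75% of all genes. Rises came from complex I (8 of 33), complexes II to IV (2 of 23) and ATP synthase (3 of 14). Ndufv2, a complex I subunit, stood at 4.67, 4.70, 4.58, 4.76 and 4.77 in AL-NIA and between 4.86 and 5.62 with a median of 5.33 in CR-NIA replicates 2 to 9 (0.54 ± 0.11, adjusted p 0.00178). The AL-NIA levels lay close together and below all 8. Atp5j2 of ATP synthase went from 5.83, 5.66, 5.80, 5.93 and 6.16 to between 6.21 and 7.02 with a median of 6.58 (0.66 ± 0.15, 0.00327), its partner Atp5l rose by 0.52 ± 0.13 (0.00628), and Cox7c of cytochrome oxidase by 0.53 ± 0.13 (0.00598). Each difference was under 1 log2 unit. Over the other single removals 8 to 15 genes of the list rose, and 11 did so after quantile normalization. In the citric acid cycle the picture was mixed: Pdhb, of pyruvate dehydrogenase, and its kinase Pdk1 rose by 0.57 ± 0.17 (0.0239) and 0.89 ± 0.25 (0.0181), and Cs, citrate synthase, fell by 0.58 ± 0.15 (0.01). Without either of AL-NIA replicates 1 or 4, the call of Pdhb ended (adjusted p up to 0.0953). The call of Pdk1 ended without AL-NIA replicate 4 (adjusted p 0.0764). Leaving out AL-NIA replicate 5 ended the call of Cs (adjusted p 0.0518).

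The mitochondrial ribosome, which translates the chain subunits encoded in mitochondrial DNA, had 10 of 63 genes higher and 3 lower (14 and 4 without the library labelled CR-NIA replicate 1). Over all genes 4.8% were higher and 6.32% lower, or 8.12% and 9.75% without that library, so these falls are not above the background. Mrpl12 went from 3.38, 3.94, 3.56, 3.43 and 3.70 to between 4.11 and 4.83 with a median of 4.70 (0.83 ± 0.16, adjusted p 0.0011), Mrps18c from 3.52, 3.28, 3.44, 3.47 and 3.67 to between 3.85 and 4.27 with a median of 4.15 (0.59 ± 0.10, 0.000545), and Mrpl20 and Mrps33 rose by 0.57 ± 0.11 (0.000746) and 0.50 ± 0.10 (0.00125). In these 4 genes every CR-NIA library but the one labelled replicate 1 lay above all AL-NIA libraries. Of 54 cytosolic ribosomal protein genes 5 rose and 1 fell (10 and 1 without that library), against 4.8% and 6.32% of all genes. Rpl34 went from 4.70, 4.09, 4.50, 4.48 and 4.51 to between 4.86 and 5.46 with a median of 5.17 (0.64 ± 0.14, 0.00331), and Rps27, Rpl38 and Rpl39 rose by 0.68 ± 0.17, 0.61 ± 0.17 and 0.55 ± 0.17 (0.00778, 0.0181 and 0.0283). Ribosomal protein genes have many processed copies, which a probe may not separate. Without AL-NIA replicate 2, the call of Rpl38 ended (adjusted p 0.0741). Rpl39 lost its call in 6 of 14 single removals, with an adjusted p of up to 0.0948 (without AL-NIA replicate 2).

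Initiation factors and proteasome subunits held calls in both directions. Eif2b5, the catalytic subunit of the exchange factor for eIF2, rose from 1.46, 1.15, 1.39, 1.25 and 1.15 to between 1.84 and 2.46 with a median of 2.09 (0.73 ± 0.12, adjusted p 0.000446). Eif3c and Eif3b, scaffold subunits of eIF3, fell by 0.81 ± 0.16 (0.00131) and 0.55 ± 0.12 (0.0035). Of 34 translation factors 2 rose and 3 fell, which is near the background, or 5 and 4 without the library labelled CR-NIA replicate 1. Psmd13, a lid subunit of the proteasome, had the smallest adjusted p of all 7958 genes, 4.23e-05. It stood at 3.65, 3.62, 3.53, 3.64 and 3.50 in AL-NIA and between 4.14 and 4.95 with a median of 4.73 in CR-NIA replicates 2 to 9, and the library labelled CR-NIA replicate 1, at 3.70, was also just above the AL-NIA range. The rise was 0.95 ± 0.13, 1.93-fold. The core subunit Psmb3 and the activator subunit Psme2 rose by 0.49 ± 0.09 (0.000785) and 0.36 ± 0.10 (0.0125), while Psmd11, another lid subunit, fell by 0.55 ± 0.15 (0.0155). In all, 4 of 33 proteasome genes rose and 2 fell (5 and 2 without that library), where 4.8% and 6.32% of all genes did; the falls are at the background. Bop1, a factor of ribosome assembly, fell by 0.54 ± 0.13 (0.0073), in a list of 22 with 2 rises and 3 falls (2 and 5 without it). Every call among these named genes held on removal of any single library.

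**Figure D3:**
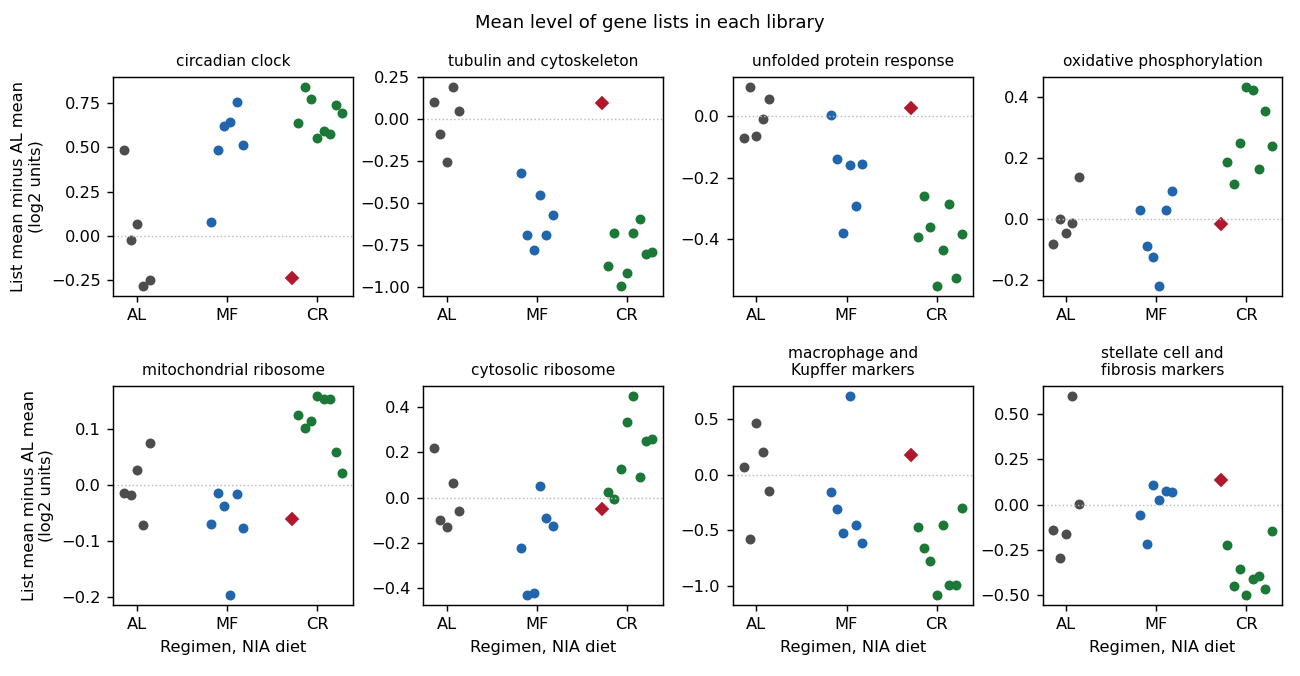
Mean level of 8 gene lists in each NIA library, as the difference from the AL-NIA mean (log2 units), for AL, MF and CR libraries. The red diamond is the library labelled CR-NIA replicate 1. The clock and respiratory chain lists lie higher and the tubulin and unfolded protein response lists lower in most of CR-NIA replicates 2 to 9, and the macrophage and stellate cell lists lie lower as well.

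Among other liver functions, Alas1, the rate-limiting enzyme of heme synthesis, stood at 6.31, 4.92, 4.77, 5.53 and 5.68 in AL-NIA and between 6.14 and 7.67 with a median of 6.97 in CR-NIA replicates 2 to 9 (1.33 ± 0.42, adjusted p 0.0332), and Uros, a later enzyme of the pathway, fell from 0.88, 1.01, 0.82, 1.07 and 1.22 to between 0.08 and 0.57 with a median of 0.39 (-0.61 ± 0.13, 0.00327). Nampt, which makes the precursor of NAD, rose by 1.06 ± 0.26 (0.00705). Nfe2l2, which encodes the antioxidant regulator NRF2, fell from 0.56, 1.10, 0.48, 1.19 and 1.18 to between -0.14 and 0.03 with a median of -0.05 (-0.84 ± 0.17, 0.00159), and it was the 1 called gene of 20 in the NRF2 and glutathione list. Of 23 autophagy and lysosome genes 3 rose and 0 fell, against 4.8% and 6.32% of all genes (4 and 2 without the library labelled CR-NIA replicate 1, against 8.12% and 9.75%). The rises were those of Gabarapl1, of the autophagosome membrane, by 1.09 ± 0.23 (0.00222), the lysosomal membrane protein Lamp2 by 0.33 ± 0.08 (0.00801) and Wipi1 by 0.30 ± 0.09 (0.0274). In amino acid breakdown Bckdha, of branched-chain keto acid oxidation, and the alanine aminotransferase Gpt2 rose by 0.63 ± 0.19 (0.0239) and 0.63 ± 0.20 (0.0354). Rbm3, an RNA-binding protein that rises when cells cool, went from 2.93, 1.69, 1.65, 1.60 and 1.07 to between 2.29 and 4.0 with a median of 3.25 (1.29 ± 0.34, 0.0109), and the splicing factor Srsf5 fell from 3.58, 3.50, 2.69, 3.40 and 2.49 to between 0.91 and 3.12 with a median of 2.03 (-1.0 ± 0.25, 0.00883). Coagulation factor F7 rose by 0.96 ± 0.18 (0.000925). Wee1, a clock-driven kinase of the cell cycle, rose by 0.49 ± 0.13 (0.0149). Cdkn1a, the cell-cycle inhibitor p21, was not detected on any of the 8 CR-NIA columns. Over those 8, which leave out the library labelled CR-NIA replicate 1, it was at least 1.61-fold lower than in AL-NIA. With all 9 CR-NIA libraries its adjusted p in limma was 0.0331. The call of Wipi1 ended without any of AL-NIA replicates 4 or 5 or CR-NIA replicates 3 or 7 (adjusted p up to 0.112). Leaving out either of AL-NIA replicates 1 or 4 ended the call of Bckdha (adjusted p up to 0.0756). Alas1, Gpt2 and Cdkn1a lost their calls in 8, 9 and 6 of 14 single removals, with adjusted p of up to 0.0981, 0.132 and 0.16 (without AL-NIA replicate 3, AL-NIA replicate 4 and AL-NIA replicate 4). With the library labelled CR-NIA replicate 1 also left out, Wipi1, Gpt2 and Cdkn1a still lost the call in 1, 1 and 1 of 13 removals.

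Where a gene had further probes, these did not always repeat the call of its brightest probe. Over all called genes 334 of 378 further probes (88.4%) had the same sign, 142 were called in the same direction and 1 in the opposite one. Of 2 further Usp2 probes 1 was called (0.86) and 1, detected on 1 of 8 CR-NIA columns, was not (0.26). Of 3 further probes each, 2 were called for Nsdhl (-1.04 and -1.34, against -0.07 for the other), Upp2 (1.43 and 1.62, against 1.44) and Cyp2a5 (1.57 and 1.70, against 1.38), and 1 for Lamp2 (0.32, against 0.07 and -0.19). The single further probes of Tef (0.19), Gpcpd1 (0.48), Tubb2b (-0.21, detected on 0 of 8 CR-NIA columns), Pnkd (0.09), Srprb (-0.05), Srsf5 (-0.14), Psmd11 (-0.01), Nampt (0.25), Pdhb (0.18), Coq10b (0.88), Acads (0.41), Cdkn1a (-0.49), Rpl38 (0.32) and Sec23b (-0.25) were not called, nor were both of Wipi1 (0.07 and 0.18). For these 15 genes the call rests on 1 probe. Conversely, some genes not called by their brightest probe had a called further probe (limma, adjusted over 10659 probes). Among them were Gpr182 (0.55), Tapbp (-0.43), Proc (0.95), Keap1 (0.32), Irf1 (-0.43) and Shmt2 (-0.42). The Irf1 and Shmt2 probes were detected on 1 of 8 CR-NIA columns. Other further probes of Keap1 (0.16 and -0.02) and Irf1 (-0.17 and -0.24) were not called.

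List counts here and above read each gene from its brightest probe. Several lists held no called gene in limma, with or without the library labelled CR-NIA replicate 1: lipoproteins (16 measured), bile acids (20), antioxidant enzymes (18), the growth hormone axis (8), acute phase proteins (19) and antigen presentation (14). Other lists with 0 calls gained some without that library: further P450 enzymes (2 rose and 1 fell of 17), glycolysis (1 rose of 11) and 1-carbon and sulfur amino acids (1 fell of 16). Few calls came from CAR and PXR targets (1 rise among 18, or 2 without that library), sex-biased genes (1 fall among 21, or 1 rise and 2 falls), iron (1 fall among 14 in both fits), interferon response (1 fall among 24, or 3), zonation (2 rises among 22, or 4 rises and 1 fall), and complement and coagulation (1 of each among 30, or 2 of each). Over all genes 4.8% rose and 6.32% fell, or 8.12% and 9.75% without that library. Across all genes 2074 of 7958 had an unadjusted p under 0.05. Markers of macrophages and stellate cells lay at lower levels in CR-NIA, without passing the test when all libraries were in the fit. Of 16 macrophage and 18 stellate cell genes, 10 of each fell once AL-WIS replicate 1, the library labelled CR-NIA replicate 1 and MF-WIS replicate 4 were all left out of the fit, and 1 macrophage gene rose. In that fit 1204 of all 7958 genes fell and 935 rose. Of the 16 macrophage genes 0 were called with all libraries and 15 had a negative difference (median -0.55). Their mean level was 1.00 to 2.04 in AL-NIA, 0.49 to 1.27 in CR-NIA replicates 2 to 9 and 1.76 in the library labelled CR-NIA replicate 1, against 0.96 to 2.28 in MF-NIA. Vsig4, of Kupffer cells, had 3.47, 2.96, 3.90, 3.65 and 3.23 against a range of 1.60 to 2.78 with a median of 2.25 (-1.11 ± 0.48, 0.125), and Adgre1 (F4/80) had -0.99 ± 0.41 (0.117). Without that library 2 macrophage genes fell, C1qc (-1.30, adjusted p 0.0491) and Lyz1 (-1.25, 0.0245). Of 18 stellate cell genes 0 were called, or 2 without that library, and their mean level was 0.45 to 1.35 in AL-NIA, 0.24 to 0.60 in CR-NIA replicates 2 to 9, 0.88 in the library labelled CR-NIA replicate 1 and 0.53 to 0.85 in MF-NIA. Neutrophil, lymphocyte, bile duct and red cell lists (3 to 5 genes each) and 17 endothelial genes had 0 calls with all libraries; without the library labelled CR-NIA replicate 1, 2 endothelial genes rose and 1 fell. The part of these cell types in the gene groups above was not tested.

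**Figure D4:**
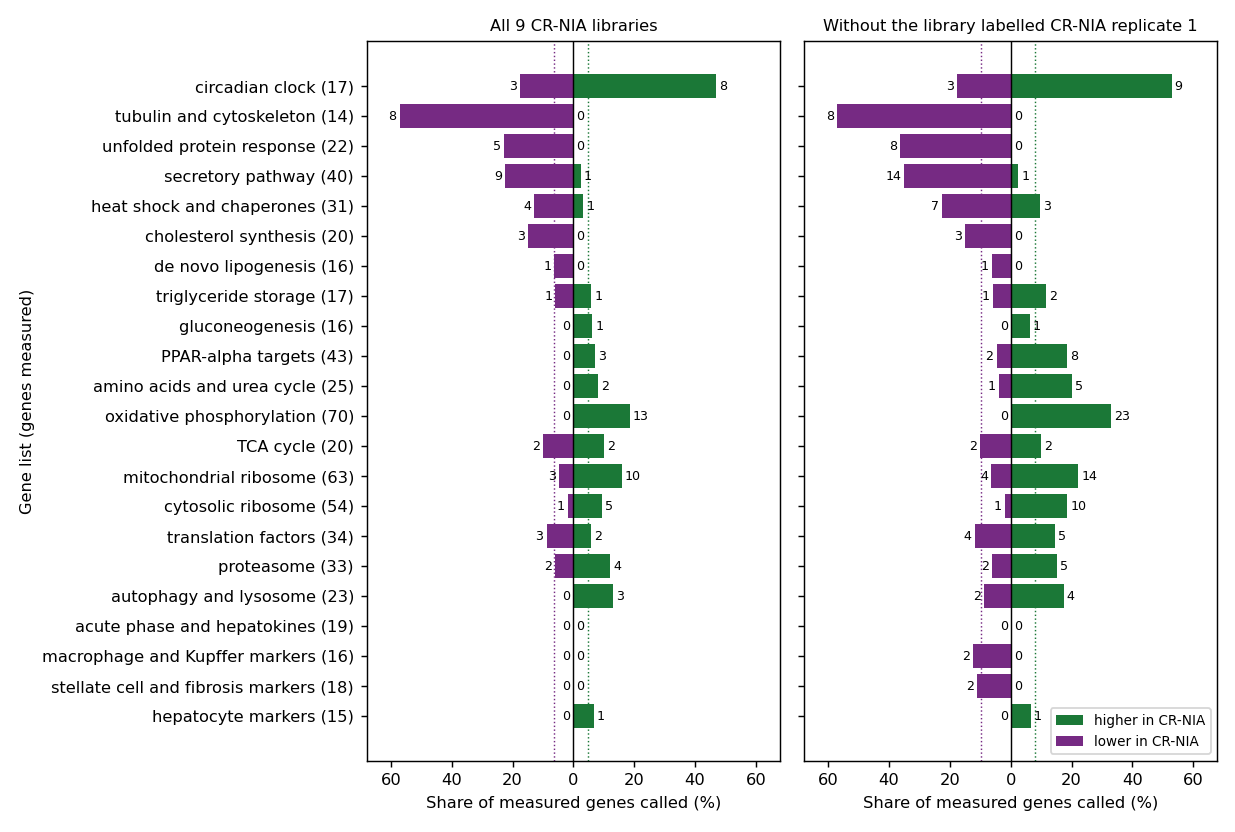
Share of measured genes called higher (green, to the right) or lower (purple, to the left) in CR-NIA against AL-NIA for 22 lists, with the number of genes at each bar and dotted lines at the shares over all genes. The left panel has all 9 CR-NIA libraries (4.8% and 6.32% of all genes) and the right panel leaves out the library labelled CR-NIA replicate 1 (8.12% and 9.75%).

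The MF-NIA mice received 1 portion a day at the same hour as the CR-NIA mice, but in the hopper and with other calories, so the direct test between them compares livers at a matched feeding hour. CR-NIA differed from MF-NIA in 1220 genes (15.3%), 461 higher (5.79%) and 759 lower (9.54%). Without the library labelled CR-NIA replicate 1 the count was 1600 (20.1%), 615 higher (7.73%) and 985 lower (12.4%). The split depends on the scaling: after median centring it was 1332 higher and 273 lower. Against the AL-NIA arrays, which both comparisons share, MF-NIA differed in 156 genes (1.96%), or in 222 (2.79%) with the library labelled CR-NIA replicate 1 out of the fit. The 156 dropped to 1 without AL-NIA replicate 5 and to 5 without replicate 1.

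For several of the genes with the largest rises the direct test between CR-NIA and MF-NIA did not pass. Dbp was 2.67 ± 0.83 above AL-NIA in MF-NIA, and CR-NIA minus MF-NIA was 0.31 ± 0.72 (adjusted p 0.817). Rgs16 differed between CR-NIA and MF-NIA by -0.01 ± 0.50 (0.993), Per1 by 0.08 ± 0.33 (0.893), Angptl4 by -0.22 ± 0.37 (0.738) and Tubb4b by 0.02 ± 0.26 (0.969). Rgs16, Angptl4 and Tubb4b were themselves called in MF-NIA against AL-NIA, at 2.07, 2.03 and -1.09 (adjusted p 0.0458, 0.0162 and 0.0481). These p-values do not show that the levels are equal, and the standard errors give the room left for a difference. Usp2 was 1.54 ± 0.56 higher in CR-NIA than in MF-NIA, which passed only without the library labelled CR-NIA replicate 1 (adjusted p 0.0549 with it and 0.00383 without it).

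Other named genes passed the direct test. Psmd13 was 0.99 ± 0.12 higher than in MF-NIA (adjusted p 3.90e-06), while MF-NIA minus AL-NIA was -0.04. Mrpl20 was 0.76 ± 0.10 higher (1.06e-05), Mrpl12 0.89 ± 0.15 (0.000172), Ndufv2 0.64 ± 0.10 (0.000112) and Eif2b5 0.78 ± 0.12 (4.50e-05). Hsd17b11 was 1.06 ± 0.22 higher (0.00094), Nampt 0.79 ± 0.25 (0.0244) and Lamp2 0.50 ± 0.08 (7.56e-05). Lower in CR-NIA than in MF-NIA were Insig2 (-1.31 ± 0.33, 0.00615), Nsdhl (-1.45 ± 0.29, 0.000749), Cyp17a1 (-2.05 ± 0.58, 0.0148), Nfe2l2 (-0.89 ± 0.16, 0.000305), Hacl1 (-1.33 ± 0.31, 0.00301) and Eif3c (-0.95 ± 0.15, 8.97e-05). Cr1l, a complement-control protein of mice, lay at 1.39 ± 0.11 (SD, n = 6) in MF-NIA, 0.90 ± 0.38 (n = 5) in AL-NIA and 0.15 ± 0.17 in CR-NIA replicates 2 to 9, and differed between CR-NIA and MF-NIA by -1.13 ± 0.15 (limma adjusted p 1.27e-05). Ppfibp1 and Mfsd11 were among the 5 smallest p of this contrast, at -0.69 ± 0.09 (1.06e-05) and -0.61 ± 0.08 (1.51e-05), and Ppfibp1 was not called against AL-NIA (adjusted p 0.163).

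**Figure D5:**
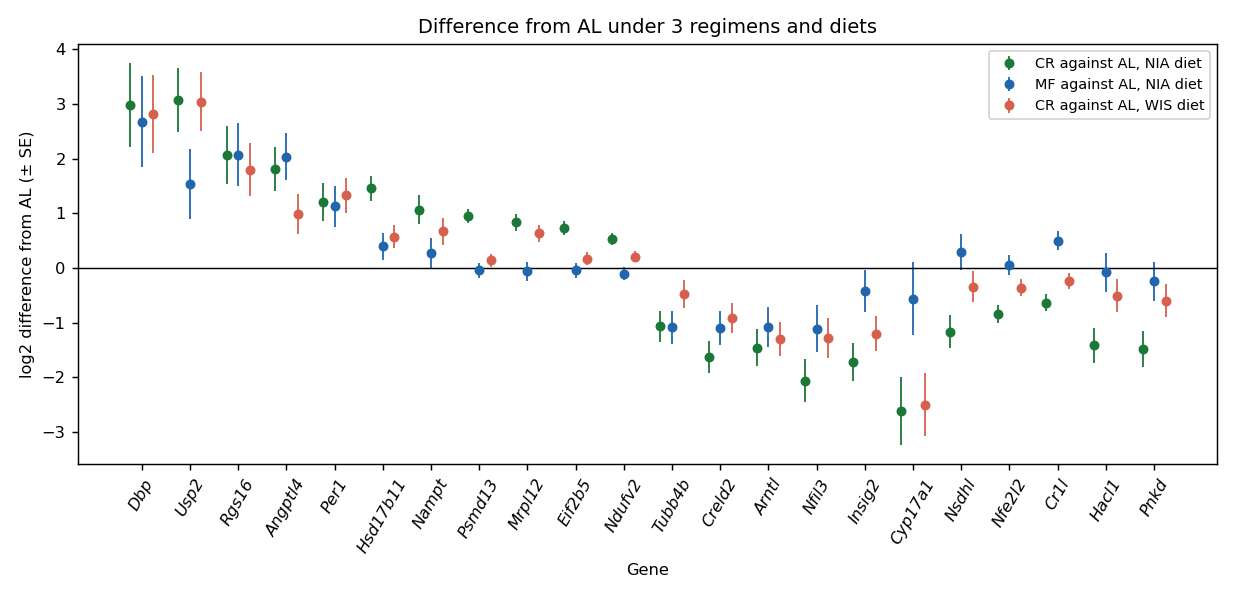
Log2 difference from AL with its standard error for 22 genes under restriction on the NIA diet (green), meal feeding on the NIA diet (blue) and restriction on the WIS diet (red). Dbp, Rgs16, Angptl4 and Tubb4b have green and blue values that lie close together, while for Psmd13, Mrpl12, Eif2b5, Ndufv2 and Nfe2l2 the blue value lies near 0.

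On the WIS diet, with other mice, 1139 genes (14.3%) differed between CR-WIS and AL-WIS (1253 with the library labelled CR-NIA replicate 1 out of the fit), a count that dropped to 423 without AL-WIS replicate 1. Clock genes were called there as well: Dbp 2.81 ± 0.71 (adjusted p 0.00995), Usp2 3.04 ± 0.54 (0.00218), Ciart 2.06 ± 0.35 (0.00218) and Arntl -1.30 ± 0.32 (0.00836). Cyp17a1 had -2.50 ± 0.57 (0.00652). For these 5 genes the test of the difference between diets gave adjusted p of 0.969, 0.993, 0.814, 0.926 and 0.974, which does not show that the effects are equal. Smaller values and no call were seen on the WIS diet for Psmd13 (0.14 ± 0.12, 0.423), Eif2b5 (0.17 ± 0.11, 0.309) and Syvn1 (-0.03 ± 0.17, 0.942). The test of the difference between diets gave adjusted p 0.0531, 0.207 and 0.271 for these with all libraries, and 0.000497, 0.00722 and 0.0444 without the library labelled CR-NIA replicate 1.

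The restriction effect differed between the diets in 3 genes (0.0377%) with all libraries, and in 53 (0.666%) without the library labelled CR-NIA replicate 1. Ccng1, a p53-responsive cyclin, stood at 1.43, 1.06, 1.61, 1.48 and 1.66 in AL-NIA and between 1.30 and 2.28 with a median of 1.82 in CR-NIA replicates 2 to 9, a log2 difference of 0.36 ± 0.13 that just missed the threshold (adjusted p 0.0526). A further probe of Ccng1 was called (0.40, limma adjusted p 0.0457) and another was not (0.265, 0.267). On the WIS diet Ccng1, by its brightest probe, fell by 0.54 ± 0.12 (0.0047), and the difference between the diets was 0.90 ± 0.17 (0.0335). Sh3bgrl rose on the NIA diet by 0.62 ± 0.15 (0.00649) and fell on the WIS diet (-0.41 ± 0.14, 0.0445). Rabggta, a subunit of the enzyme that attaches lipid anchors to Rab proteins, went the other way, -0.36 ± 0.10 (0.0181) on the NIA diet and 0.34 ± 0.10 (0.0169) on the WIS diet. With limma, 805 genes had an unadjusted p under 0.05 for this interaction, and the count of called genes was 0 on removal of any of AL-NIA replicates 1, 2 and 4 or CR-NIA replicates 2, 4, 8 and 9, with 616 to 804 genes then at an unadjusted p under 0.05. Without either of AL-NIA replicates 2 or 4, the call of Rabggta ended (adjusted p up to 0.066).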

How the data were processed

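Liver RNA was hybridised to Illumina BeadChips (1 colour). The authors deposited probe signals as an intensity and a detection p-value each (GenomeStudio 2011.1 is named in the submitters' processing notes), and a value table whose unit is a score: from the values, each array's log2 signal minus its mean over its standard deviation. The columns of the intensity table name groups and not samples, so the scores, multiplied by 1.51 (the median standard deviation of the log2 signal) to approximate log2 units, were tested. How the signals were background-corrected and normalized is not given in these sources. The intensities were not normalized again, since the 6 AL-NIA columns, not used here, face 5 labelled samples.

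A probe entered if 4 or more of the 34 columns had a detection p below 0.01 (11334 of 25697, 10659 with a gene symbol). A gene was read from its probe of highest mean level, for 7958 genes, and 23978 probes had 1 symbol and 1719 none. The 34 columns hold 8 of CR-NIA and none of AL-NIA. A gene detected only in CR-NIA could thus enter and one detected only in AL-NIA could not, which limits the counts of higher and lower genes. Without a filter 330 of 16593 genes were called higher in CR-NIA than in AL-NIA and 376 lower. limma 3.58.1 (R 4.3.3) fitted 1 mean per group over all 40 arrays, with a Benjamini-Hochberg threshold of 0.05. The fit was tested on simulated data.

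Genes named are the 15 largest rises and falls, up to 4 members of each list with the smallest p, and the 5 smallest p of the CR-NIA against MF-NIA and diet contrasts. Clock, Nr1d2, Per2, Bhlhe40, Hspa5, Igfbp2, Dnajc3, Hsp90b1 and Pdia6 were added for their roles after their values were seen. The comparison and the 53 lists (1279 genes, 1152 matched, 1015 measured) were chosen with earlier results of these data known. Alternatives were other filters, scalings, probe rules, moderations and samples; leaving out AL-WIS replicate 1 alone, the 14 arrays without the library labelled CR-NIA replicate 1, and removals beside that library were added after seeing the data. Promoters are from RefSeq (GRCm38.p6).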

Additional observations from a re-analysis of the deposited data

Results flagged for a closer look

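Most values far from the rest of their group belong to the library labelled CR-NIA replicate 1, judged by the gap to the nearest library over the range of the group (Dixon's 95% value, for groups of 4 to 10 libraries). Chance flags about 1 in 20 groups. On the axis from AL-NIA to CR-NIA it lay at -0.0793, the lowest of the CR-NIA libraries. Among the genes named above it had the lowest level of its group in 18: -0.513 for Usp2, 0.785 for Dbp, 1.81 for Tef, -0.0906 for Ciart, -0.559 for Per1, 1.07 for Nr1d2, 1.51 for Rgs16, 1.56 for Coq10b, 0.981 for Angptl4, -0.362 for Pcsk4, 2.1 for Upp2, 0.876 for Nrep, 0.453 for Hsd17b11, 0.996 for Rdh9, 2.9 for Igfbp2, -0.393 for Ppargc1b, 3.83 for Mrps33 and 1.19 for Eif2b5. It had the highest level in 22: 3.79 for Nfil3, 1.28 for Arntl, 2.08 for Cyp17a1, 3.31 for Tubb2b, 4.03 for Denn2b, 2.6 for Insc, 2.08 for Acnat2, 2.93 for Creld2, 3.37 for Ddc, 1.95 for Lrfn3, 3.52 for Pnkd, 5.34 for Syvn1, 3.56 for Calr, 2.22 for Nsdhl, 3.5 for Agpat2, 0.468 for Pdk4, 3.55 for Hsph1, 2.23 for Ahsa1, 0.226 for Cdkn1a, 1.04 for Nfe2l2, 1.45 for Tuba1a and 1.18 for Cr1l. Its levels lay on the AL-NIA side in each of these genes, and whether its label or its biology differs was not tested.

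In AL-NIA, replicate 1 had the highest level of Usp2 (0.8) and Per1 (1.66) and the lowest of Lrfn3 (0.483), Mlxipl (3.83) and Clpx (3.0), and replicate 2 the lowest of Pik3r1 (1.87), each apart from the other 4. CR-NIA replicate 7 had the highest Fgf21 level (0.876).

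The restriction effect differed between the NIA and WIS diets, by the interaction term, in Ccng1 (0.903 on the log2 scale, NIA minus WIS), Sh3bgrl (1.03) and Rabggta (-0.709).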

How the results depend on the processing

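Against 885 genes called between CR-NIA and AL-NIA, 2139 were called without the 3 libraries that stand apart (AL-WIS replicate 1, the library labelled CR-NIA replicate 1 and MF-WIS replicate 4), 1811 in the 14 arrays alone without the library labelled CR-NIA replicate 1, and 2085 with array weights. With the replicate number as a block 323 were called. The labels used here do not say whether the numbers pair the samples. Same-numbered AL-NIA and CR-NIA libraries, as deviations from their group means, correlated at -0.144, -0.222, 0.164, -0.205 and 0.143. These values leave out the other groups and cannot exclude a block shared by replicate number. Leaving out 1 library gave 507 to 1422, and 1 more beside the library labelled CR-NIA replicate 1 gave 955 to 1450. Between CR-NIA and MF-NIA, with 1220 called, the counts were 2328 without the 3 libraries, 2199 without a detection filter and 2397 with array weights, and single removals gave 890 to 1600. For the difference between diets, with 3 called, the counts were 132 without the 3 libraries, 7 without AL-WIS replicate 1, 1 with the replicate block, 0 with no filter, 14 after quantile normalization and 82 with array weights; single removals gave 0 to 53 and double removals up to 80. The cause of these moves was not tested. Of 114 called genes named by the rule or in the text, 55 kept the call under all of up to 28 alternatives and 59 lost it in at least 1, 55 of them under the replicate block, 35 without AL-NIA replicate 4 and 23 without AL-NIA replicate 5; 0 reversed. Detection on 33.95 to 38.5% of probes per CR-NIA column limits what could be seen of low genes.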
